A study of Mus musculus with 6 samples.

Results

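The 7 genes of the IL-33 and IL-1 axis were followed in mononuclear stromal cells of mouse skeletal muscle: the ligands Il33, Il1a and Il1b, the ligand-binding receptor chains Il1rl1 (ST2, the receptor of IL-33) and Il1r1 (the type I receptor of IL-1α and IL-1β), their shared accessory chain Il1rap, and the receptor antagonist Il1rn. They were chosen by name, with earlier results of these data known, and all 7 were among the 22483 genes of the deposited table. The table held 6 libraries from Swiss white mice aged 8 to 12 weeks: 3 sorted subpopulations, each from hindlimb muscle on day 3 after injection of 20 μM cardiotoxin, a snake venom toxin that kills muscle fibers, and from the untreated contralateral muscle. The labels name the muscle as tibialis anterior, whereas the study's text gives gastrocnemius and soleus for acute injury, and this was not resolved. Cells negative for the leukocyte, endothelial and myeloid surface proteins CD45, CD31 and CD11b were sorted by CD140a (the PDGF receptor alpha) and Sca1 into CD140a(-)/Sca1(+), CD140a(+)/Sca1(-) and CD140a(+)/Sca1(+) cells. Enzymatic digestion and an incubation of 8 h at culture temperature came before the sort, and their part in the levels was not tested. Each subpopulation and state had 1 library made from transcript 3′ ends, and the number of animals behind a library was not given in the sources used here. Levels are given as normalized counts, obtained by inverting the deposited log2 values. Where 3 values stand together, they follow the order in which the subpopulations are named here.

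IL-33 is held in the nuclei of stromal and barrier cells and acts as an alarm signal when such cells are damaged. It binds ST2, and IL-1α or IL-1β binds the type I receptor. Either pair then recruits the accessory chain, and the intracellular domains pass the signal through MyD88 and IRAK kinases to NF-κB and AP-1. IL-1ra, the product of Il1rn, occupies the type I receptor without recruiting the accessory chain, and a soluble form of ST2, made from the same gene as the membrane receptor, traps IL-33. In muscle, IL-33 from stromal cells is known for acting on ST2-bearing regulatory T cells, and IL-1 for inducing chemokines in fibroblasts.

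The libraries differed in depth and in how well they matched their gates. The spacing of the lowest values put them at 2094353 to 14173590 reads, a 6.77-fold range. Injured CD140a(+)/Sca1(-) cells stood apart, with 69.1% of genes listed at 0, against 28.2% to 39.0% in the other libraries. Pdgfra, which encodes CD140a, had 335, 203 and 1240 normalized counts in injured cells, against 211, 33.6 and 26.3 in control cells. The control library sorted as CD140a-negative thus held more Pdgfra mRNA than both control libraries sorted as positive. Ly6a, the gene of Sca1, had 1177, 2.09 and 4099 in injured cells, against 5850, 70.4 and 253 in control cells. In each state it was lowest in the Sca1(-) library. Transcripts of the gated-out proteins stayed at or below 27.5 normalized counts for Itgam (CD11b) and 20.5 for Ptprc (CD45), while Pecam1 (CD31) reached 105 in control CD140a(+)/Sca1(+) cells and was at or below 1.51 in the injured libraries. The study reports its lowest sorting enrichment for control CD140a(+)/Sca1(+) cells. Each injury ratio given below for CD140a(+)/Sca1(+) cells is relative to that library. With 1 library per subpopulation and state, an injury difference and a difference between single libraries cannot be told apart within a subpopulation, and fewer cells of a type and less RNA per cell cannot be told apart in any sorted sample.

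The members Il1rl1, Il1r1 and Il1rn were higher in injured than in control cells in the test across subpopulations that is described with their values. Their upstream sequences are shown because these are the members whose levels moved with injury, and each has more than 1 annotated start, so that a per-gene count sums transcripts from separate promoters. The 250 bases before each start are from RefSeq (GRCm38, all on the plus strand), and capitals mark a match to the NF-κB consensus or to the AP-1 motif TGANTCA, searched on both strands. These matches overlapped no other.
Il1rl1 upstream start, chr1:40429320-40429569: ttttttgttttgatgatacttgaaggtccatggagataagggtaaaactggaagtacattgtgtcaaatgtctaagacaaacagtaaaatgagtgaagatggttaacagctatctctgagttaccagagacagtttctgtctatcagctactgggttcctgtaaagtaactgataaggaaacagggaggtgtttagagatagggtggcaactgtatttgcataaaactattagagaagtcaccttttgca
Il1rl1 downstream start, chr1:40439379-40439628: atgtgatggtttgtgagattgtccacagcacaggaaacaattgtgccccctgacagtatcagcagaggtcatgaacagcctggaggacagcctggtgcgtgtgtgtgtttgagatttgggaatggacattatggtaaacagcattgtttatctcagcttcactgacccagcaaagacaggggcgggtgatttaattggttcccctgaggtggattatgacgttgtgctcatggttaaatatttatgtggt
Il1r1 downstream start, chr1:40266336-40266585: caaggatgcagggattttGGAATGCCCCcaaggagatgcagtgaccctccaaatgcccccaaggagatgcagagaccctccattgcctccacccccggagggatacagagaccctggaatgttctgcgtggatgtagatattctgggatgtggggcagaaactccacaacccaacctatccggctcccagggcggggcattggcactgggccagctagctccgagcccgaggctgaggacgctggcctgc
Il1rn upstream start, chr2:24336610-24336859: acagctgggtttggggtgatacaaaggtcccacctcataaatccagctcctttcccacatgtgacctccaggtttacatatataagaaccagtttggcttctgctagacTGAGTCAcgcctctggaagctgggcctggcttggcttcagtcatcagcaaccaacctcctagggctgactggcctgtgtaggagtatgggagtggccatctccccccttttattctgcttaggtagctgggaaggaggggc
The printed Il1rn window held 1 AP-1 match, 141 bases before the start, and the printed Il1r1 window held 1 NF-κB match, 232 bases before the start. These are the windows of Il1r1 and Il1rn that held a match, while 0 matches were found in the other Il1r1 window (chr1:40224830-40225079) and in the other Il1rn windows (chr2:24345041-24345290 and chr2:24345121-24345370), which are not printed. Of 32851 mouse promoter windows of this length, 6.75% held an AP-1 match and 3.90% an NF-κB match. Neither set of letters occurred in the windows of Il1rl1, nor in those of Il33, Il1b and Il1rap. Il1a, on the minus strand of chromosome 2, had an AP-1 match 12 bases before its start. A match of this kind describes the letters only.

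Il33 was abundant in 5 of the 6 libraries and scarce in one. It lies on chromosome 19 (GRCm38, 29925114 to 29960718, plus strand). It had 915, 665 and 1605 normalized counts in injured cells, against 533, 994 and 46.5 in control cells. The control CD140a(+)/Sca1(+) library was far below all others, the 5 remaining values lay between 533 and 1605, and the injured and control groups overlapped. Within CD140a(+)/Sca1(+) cells the level was 34.6-fold higher after injury (95% counting interval 26.2 to 45.9), and within CD140a(-)/Sca1(+) cells it was 1.72-fold higher (1.64 to 1.79). Within CD140a(+)/Sca1(-) cells the ratio ran the other way, at 0.669 (0.610 to 0.732). The log2 difference there, -0.57, became 1.63 when each library was centred on its median gene. In injured CD140a(+)/Sca1(-) cells that median gene was itself at the floor of the scale, 2.57, so this centring rests there on genes without reads. These intervals cover the counting of reads only and hold no biological spread.

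Across the 3 subpopulations, Il33 did not pass the test. The test was a limma fit of injured minus control with the subpopulation as a block, and a gene was called where the unadjusted p was under 0.05 and the change at least 3-fold. The estimate for Il33 was 1.67 ± 1.04 on the log2 scale (SE, 3 pairs, adjusted p over the 15532 genes tested = 0.682). Without the CD140a(+)/Sca1(-) pair it was 2.79 and passed, and without the CD140a(+)/Sca1(+) pair it was 0.10.

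Il1a and Il1b, the agonists of the type I receptor, had at most 30.4 and 124 normalized counts in any library. Il1b (chromosome 2, 129364570 to 129371139, minus strand) had 33.8, 78.5 and 2.12 normalized counts in injured cells, against 124, 0 and 0 in control cells. The highest value was in control CD140a(-)/Sca1(+) cells, the injured CD140a(+)/Sca1(+) value stood for 4 reads, and the groups overlapped. Within CD140a(-)/Sca1(+) cells the ratio of injured to control was 0.272 (95% counting interval 0.233 to 0.317), and within CD140a(+)/Sca1(-) cells Il1b was at least 40.7-fold higher, against a floor of 3 reads in the control library.

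Il1a (chromosome 2, 129299610 to 129309972, minus strand) had 30.4, 24.5 and 0.530 normalized counts in injured cells, against 13.5, 0 and 0 in control cells. The CD140a(+)/Sca1(+) libraries held 1 read at most, and the injured and control groups overlapped. Il1a was 2.25-fold higher after injury in CD140a(-)/Sca1(+) cells (1.72 to 2.99) and at least 12.7-fold higher in CD140a(+)/Sca1(-) cells, against the floor of 3 reads. Neither gene passed the test across subpopulations. The log2 estimate was 1.27 ± 0.61 for Il1a (adjusted p = 0.649) and 1.06 ± 1.03 for Il1b (adjusted p = 0.736), and without the CD140a(+)/Sca1(-) pair that of Il1b was -0.37.

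Transcripts of leukocytes, a main source of IL-1, varied over the same libraries. The summed level of 20 leukocyte markers was 486, 970 and 370.0 normalized counts in injured cells, against 642, 195 and 105 in control cells. The highest sum, in injured CD140a(+)/Sca1(-) cells, included 222 normalized counts of Tyrobp and 249 of Lyz2. Of the 20 markers, 11 were listed at 0 in these cells, Ptprc among them, so that the median marker stood at 0. In injured CD140a(-)/Sca1(+) and CD140a(+)/Sca1(+) cells 3 and 1 were listed at 0. Of these markers 17 were tested, and 1 rose (Lyz2) and 0 fell, beside 2.3% and 3.46% of all genes. The sum of 10 neutrophil markers, of which the chemokine receptor Cxcr2 made up most in 5 of the 6 libraries, was 896, 831 and 463 in injured cells, against 646, 241 and 413 in control cells. Of the 8 tested, Clec4d rose and S100a9 fell. In the control CD140a(-)/Sca1(+) library, where Il1b was highest, the neutrophil markers S100a8 and S100a9 stood at 111 and 185 normalized counts. In that library Cxcr2 had 243, Clec4d 70.1 and Camp 20.6, while Csf3r, Retnlg, Ly6g, Mmp8 and Ngp were at or below 7.31. The part of leukocyte transcripts in the levels of Il1b, Il1a and Il1rn was not tested.

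**Figure D1:**
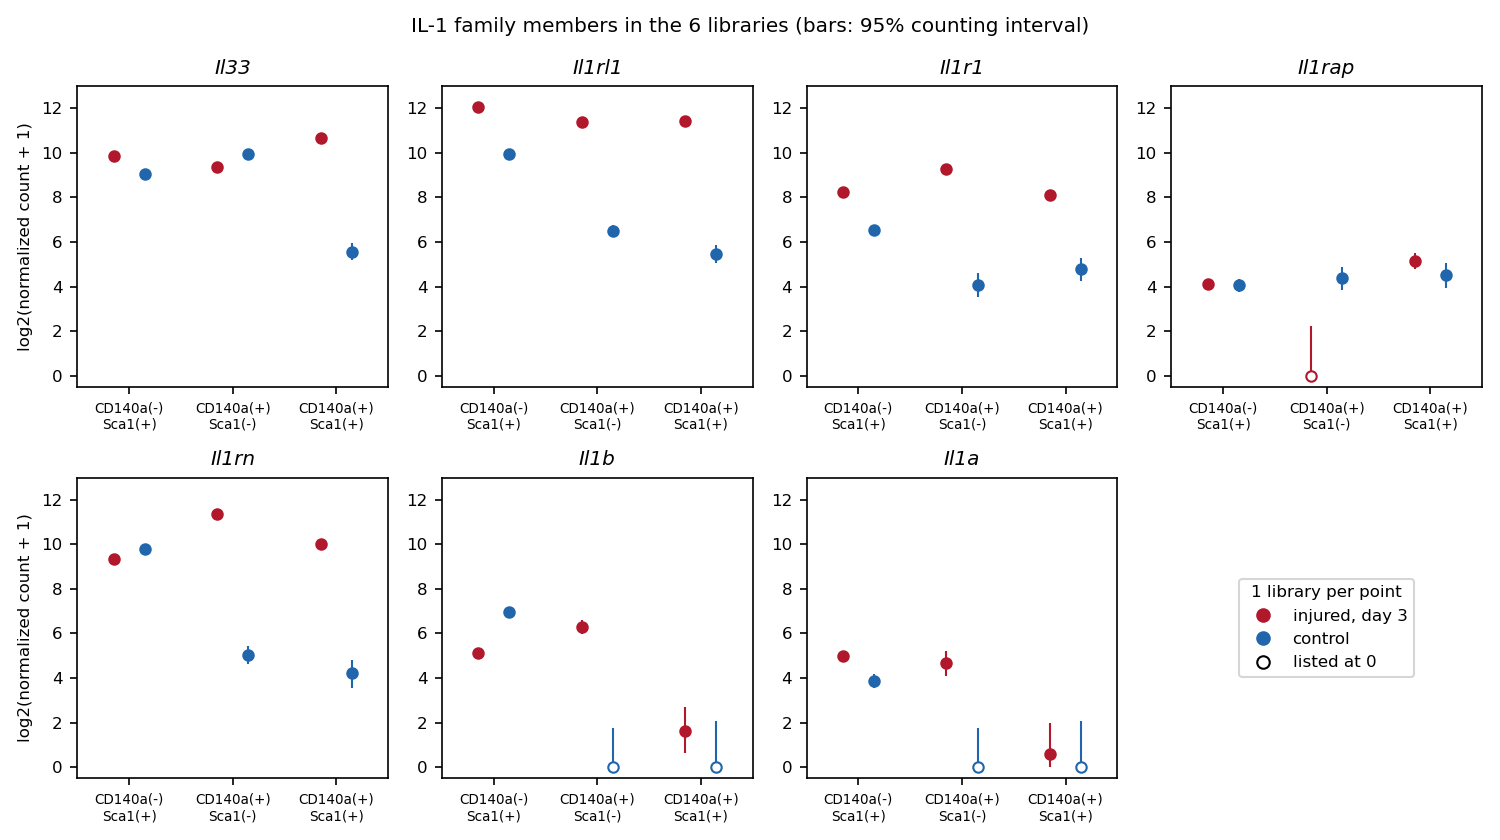
Level of each member in the 6 libraries, as log2 of the normalized count plus 1, with injured (red, left) beside control (blue, right) for each subpopulation. Bars are 95% counting intervals and open points are listed at 0. Il1rl1 and Il1r1 have every injured point above every control point, while Il33 in CD140a(+)/Sca1(-) cells and Il1rn and Il1b in CD140a(-)/Sca1(+) cells have the injured point below the control point (for Il33, not after median centring).

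By reads per transcript end, Il1rl1 was the most abundant member in injured CD140a(-)/Sca1(+) and CD140a(+)/Sca1(+) cells and stood level with Il1rn in injured CD140a(+)/Sca1(-) cells. It had the largest increase of the 7 in the test across subpopulations. It had 4318, 2663 and 2763 normalized counts in injured cells, against 999, 89.9 and 43.1 in control cells. Every injured library was above every control library, and the control CD140a(-)/Sca1(+) library was well above the other 2 controls. The level was 4.32-fold (95% counting interval 4.20 to 4.45), 29.6-fold (25.0 to 35.3) and 64.2-fold (48.2 to 86.5) higher after injury. The average increase was 4.17 ± 0.77 on the log2 scale (SE, 3 pairs, adjusted p = 0.339). By size of the estimate Il1rl1 was number 6 of the 15532 genes tested.

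The Il1rl1 count does not separate the membrane receptor from the soluble one. The gene lies on chromosome 1 (GRCm38, 40429570 to 40465415, plus strand), and its annotated transcripts start at 40429570, 40436589, 40439627, 40439776 or 40440628. Of these, 2 ended at 40465396 and 40465415, while shorter ones ended at 40441407, 40446723 and 40448148. The deposited values are 1 per gene, so reads from these ends were added together.

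Il1r1, which encodes the signalling receptor of IL-1α and IL-1β, was also higher after injury in each subpopulation. It lies on the same chromosome (40225080 to 40317257, plus strand). It had 306, 613 and 277 normalized counts in injured cells, against 91.5, 15.9 and 26.3 in control cells. The injured values lay together above all controls, highest in CD140a(+)/Sca1(-) cells, and the groups did not overlap. The level was 3.34-fold (3.03 to 3.70), 38.5-fold (25.6 to 59.4) and 10.5-fold (7.24 to 15.7) higher after injury. The average increase was 3.05 ± 0.68 on the log2 scale (SE, 3 pairs, adjusted p = 0.406).

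Il1rn, the antagonist, rose on average but not in every subpopulation. It lies on chromosome 2 (24336853 to 24351494, plus strand). It had 650, 2664 and 1022 normalized counts in injured cells, against 874, 32.1 and 17.6 in control cells. The control CD140a(-)/Sca1(+) library was high, above its injured partner, and the groups overlapped for that reason alone. The level was 83.0-fold (62.7 to 112) and 58.0-fold (37.4 to 95) higher after injury in CD140a(+)/Sca1(-) and CD140a(+)/Sca1(+) cells, and in CD140a(-)/Sca1(+) cells the ratio was 0.744 (0.713 to 0.775). The average increase was 3.58 ± 1.24 on the log2 scale (SE, 3 pairs, adjusted p = 0.569). This call was lost without the CD140a(+)/Sca1(+) pair.

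Il1rap, the chain that both receptors need for signalling, was low and did not follow them. It lies on chromosome 16 (26581704 to 26730117, plus strand). It had 16.1, 0 and 34.4 normalized counts in injured cells, against 15.6, 20.1 and 21.9 in control cells. The values were close together apart from the 0 in injured CD140a(+)/Sca1(-) cells, where 52 of the 94 genes that held 15 to 35 normalized counts in each of the other 5 libraries were also listed at 0. In CD140a(-)/Sca1(+) and CD140a(+)/Sca1(+) cells the ratio of injured to control was 1.03 (0.770 to 1.39) and 1.57 (0.970 to 2.58), both within counting error. The estimate across subpopulations was -0.62 ± 0.69 on the log2 scale (adjusted p = 0.764) and turned to 0.25 without the CD140a(+)/Sca1(-) pair and to 0.10 with median centring.

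Read together, 3 of the 7 members passed the test as higher, 0 passed as lower and 4 did not pass. All 7 had passed the filter on low values. Over all genes tested, 2.3% were called higher and 3.46% lower, and the median change was 1.67 for the members against -0.33 for all genes. The members were chosen with earlier results of these data known, so these shares are a description and no test of the set. Il1rl1 and Il1r1 were at least 3-fold higher on the deposited scale in all 3 subpopulations, as were 0.605% of genes, and their injured libraries lay above all control libraries, as in 4.18% of genes. Within single subpopulations, 2 members were at least 3-fold higher and 1 (Il1b) at least 3-fold lower in CD140a(-)/Sca1(+) cells, beside 1.97% and 4.35% of genes. In CD140a(+)/Sca1(-) cells 5 were higher and 1 (Il1rap) lower, beside 8.31% and 29.4% of genes, and in CD140a(+)/Sca1(+) cells 4 were higher and 0 lower, beside 10.4% and 6.07%. No gene reached an adjusted p under 0.05 in this fit, in which 1241 genes had an unadjusted p under 0.05, so each call rests on the unadjusted p and the fold. With the variance prior of limma set to follow the mean level, 95 genes did reach it, among them Il1rl1, Il1r1 and Il1rn. These 3 also reached it with median centring, which rests on genes listed at 0 in injured CD140a(+)/Sca1(-) cells. With an unmoderated test 0 members were called.

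**Figure D2:**
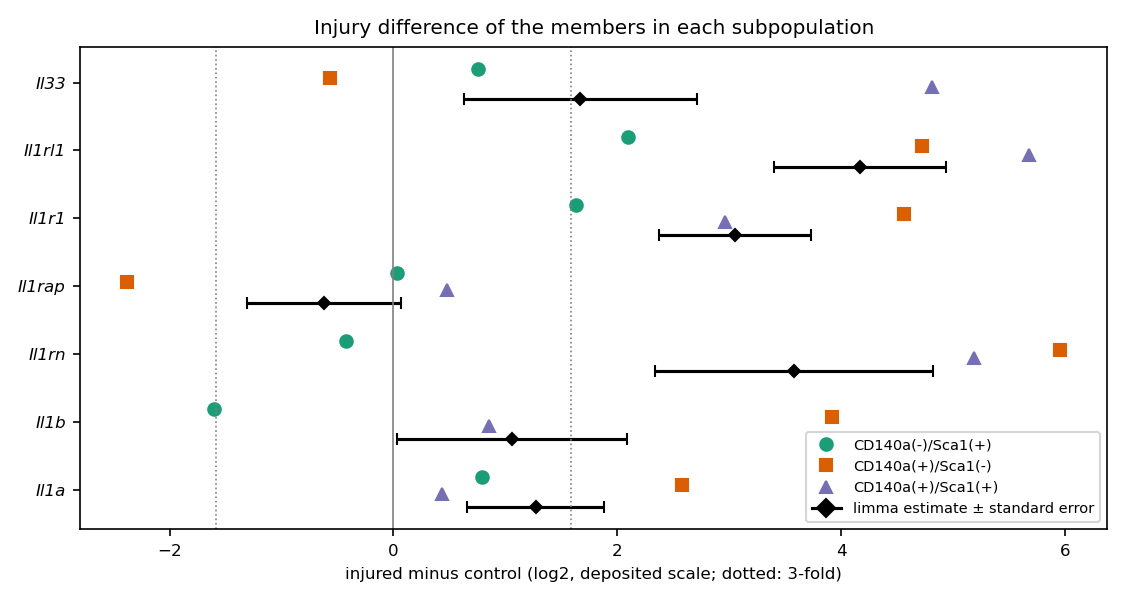
Injured minus control for each member, as a log2 difference on the deposited scale (horizontal axis), in each of the 3 subpopulations (coloured symbols) and as the limma estimate ± standard error (black). The 3 symbols of Il1rl1 and of Il1r1 are to the right of the 3-fold line, while those of Il33, Il1rn and Il1b lie on both sides of 0 (for Il33 in CD140a(+)/Sca1(-) cells, not after median centring).

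The balance between ligand, receptor and antagonist differed between the libraries. Reads per transcript were taken at 3′ ends, so these ratios need no correction for length. Il1rl1 stood at 4.72, 4.01 and 1.72 times the level of Il33 in injured cells, against 1.87, 0.0904 and 0.927 times in control cells. Receptor reads thus exceeded ligand reads in all injured libraries but in 1 control library, CD140a(-)/Sca1(+). Il1rn exceeded Il1b in all 6 libraries, by 19.2-fold, 33.9-fold and, with only 4 reads of Il1b, 482-fold in injured cells. In control cells it exceeded Il1b by 7.04-fold in CD140a(-)/Sca1(+) cells and by at least 16.7-fold and at least 6.66-fold where Il1b was listed at 0. These ratios were not tested.

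Between subpopulations, the members were compared in the same fit, each subpopulation against the mean of the other 2. Of 21 such contrasts, 3 passed. Il1rl1 was higher in CD140a(-)/Sca1(+) cells by 2.22 ± 0.82 on the log2 scale (SE). Il1a was higher in the same cells by 1.66 ± 0.64, and it was lower in CD140a(+)/Sca1(+) cells, at -1.63 ± 0.64. The adjusted p was 0.998 for the contrasts in CD140a(-)/Sca1(+) cells and 0.986 for that in CD140a(+)/Sca1(+) cells. Of all genes, 1.33% were called higher and 0.283% lower in CD140a(-)/Sca1(+) cells, 0.657% higher and 3.73% lower in CD140a(+)/Sca1(-) cells, and 1.32% higher and 0.47% lower in CD140a(+)/Sca1(+) cells. Without the control CD140a(-)/Sca1(+) library, the Il1rl1 contrast was 0.67 and did not pass, and it did not pass without the control CD140a(+)/Sca1(+) library either, at 1.65. With each of the 6 libraries left out in turn, the higher Il1a contrast passed without injured CD140a(+)/Sca1(-) or control CD140a(+)/Sca1(+) cells, and the lower one only without control CD140a(+)/Sca1(-) cells.

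Il1r1 and Il1rl1 are neighbours in a cluster of receptor genes on chromosome 1, all on the plus strand, in the order Il1r2 (a decoy receptor of IL-1), Il1r1, Il1rl2 (the IL-36 receptor), Il1rl1, Il18r1 and Il18rap (the chains of the IL-18 receptor). Il1rl2, between the pair, had 46.0, 65.2 and 43.2 normalized counts in injured cells, against 51.8, 6.03 and 1.56 in control cells. Its values were even across the injured libraries and low in the CD140a(+) controls, and it did not pass the test (1.54 ± 0.67, adjusted p = 0.636). Il18r1 starts 136 bases after the end of Il1rl1 and had at most 9.49 normalized counts in any library. Il1r2 had at most 2.82 and Il18rap at most 13.3. Of the 6 genes of the cluster 2 passed the test as higher, beside 2.3% of all genes, and both are members chosen for this report. Il1r2, Il18r1 and Il18rap lay too near the floor for a comparison with them.

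**Figure D3:**
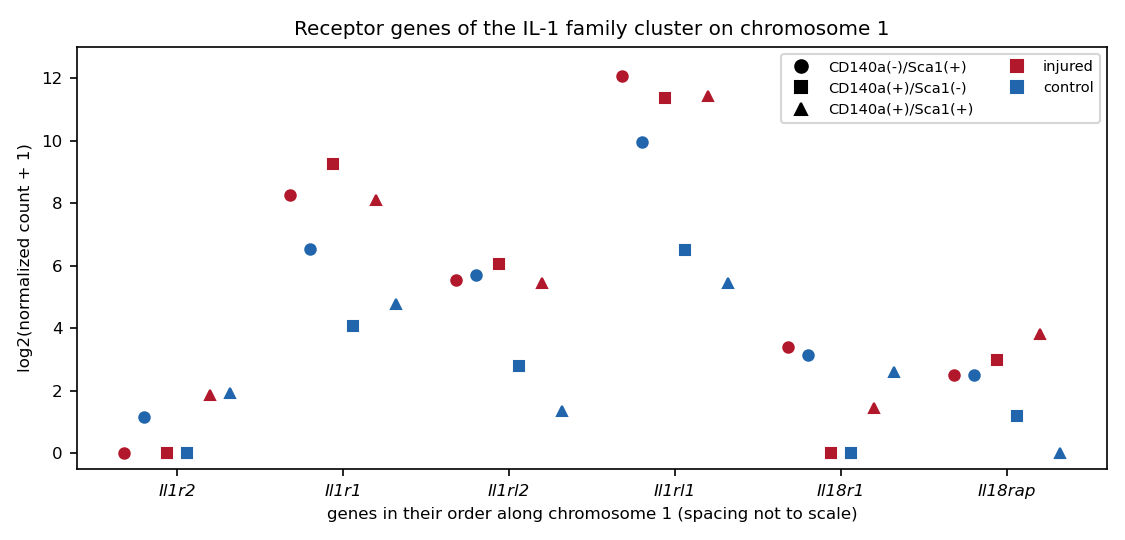
Level of the 6 receptor genes of the chromosome 1 cluster in their genomic order, as log2 of the normalized count plus 1, in injured (red) and control (blue) libraries, with a symbol for each subpopulation. Il1r1 and Il1rl1 have all injured points above all control points, and Il1r2, Il18r1 and Il18rap stay at or below 13.3 normalized counts.

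Other receptors, ligands and signalling genes of the family were read from lists. Among the remaining receptors of the family 6 of 7 were tested and 0 passed, which at 2.3% of all genes called higher and 3.46% called lower is near the share over all genes. Those with the highest mean level were Il1rl2 (35.6 normalized counts), Il18rap (5.13) and Il18r1 (4.06). Among the remaining ligands and binding proteins 3 of 7 were tested, and Il18bp, the secreted trap of IL-18, fell. It had 75.5, 0 and 114 normalized counts in injured cells, against 263, 275 and 403 in control cells, a change of -2.99 ± 0.88 on the log2 scale (adjusted p = 0.508). All injured libraries were below all control libraries, as in 11.2% of genes.

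Of the 25 genes that carry the signal from the receptors to NF-κB and the MAP kinases, 0 passed in either direction in the limma fit, and 0 had an unadjusted p under 0.05. Their median change was -0.44, against -0.33 for all genes, and with 2.3% of all genes called higher a count of 0 is near the background. The most abundant were Irak1, a receptor-proximal kinase (391 normalized counts on average, -0.19 ± 0.48), Nfkb1, the p105 and p50 subunit of NF-κB (297, 0.17 ± 0.53), and Ikbkg, the regulatory subunit of the IκB kinase (237, -1.10 ± 0.52). In injured CD140a(+)/Sca1(-) cells 11 of the 25 were listed at 0. Of the genes for IL-1 processing 14 of 20 were tested, 0 rose and 1 fell, beside 2.3% and 3.46% of all genes. The gene that fell was Aim2, a cytosolic DNA sensor. It had 35.6, 2.75 and 13.6 normalized counts in injured cells, against 206, 30.6 and 46.9 in control cells (-1.78 ± 0.50, adjusted p = 0.489). Injured and control values of Aim2 overlapped only through the highest injured library, CD140a(-)/Sca1(+).

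Of 30 genes that IL-1 and NF-κB are known to induce, 9 rose, 0 fell and 21 did not pass, beside the 2.3% of all genes that were called higher. This list, too, was chosen with earlier results of these data known. The number called higher was 4 without the CD140a(+)/Sca1(-) pair, 3 without the CD140a(+)/Sca1(+) pair and 4 in a fit without the subpopulation as a block. The median change of these genes was 0.97 on the log2 scale. The most abundant on the list, Cxcl1 (-0.09 ± 0.72) and Nfkbia (-0.24 ± 0.56), did not pass. The summed level of the list was 56261, 53947 and 20596 normalized counts in injured cells, against 132572, 21000 and 10198 in control cells. The sum was thus lower after injury in CD140a(-)/Sca1(+) cells and higher in both CD140a(+) subpopulations. Cxcl1 alone made up 82158.5 of the sum in control CD140a(-)/Sca1(+) cells and 21439.4 in their injured partner. The median level of the 30 genes was 300.9, 300.1 and 106.2 normalized counts in injured cells, against 278.2, 66.55 and 29.67 in control cells. By the median, the list was thus not lower after injury in CD140a(-)/Sca1(+) cells. Tnfaip3, an inhibitor of NF-κB, had the largest change, with 211, 502 and 21.8 normalized counts in injured cells, against 91.6, 0 and 0.884 in control cells (3.15 ± 1.06, adjusted p = 0.56). Its level after injury was highest in CD140a(+)/Sca1(-) cells, and the groups overlapped.

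Tnfaip6, a secreted hyaluronan-binding protein, had 1984, 1318 and 84.8 normalized counts in injured cells, against 217, 19.3 and 83.0 in control cells (2.87 ± 1.02, adjusted p = 0.579). The levels in CD140a(+)/Sca1(+) cells were alike in both states, and the groups overlapped. Ccl7, a monocyte chemokine, had 1202, 1177 and 961 normalized counts in injured cells, against 2085, 53.3 and 17.7 in control cells (2.84 ± 1.15, adjusted p = 0.623). As with Il1rn, the control CD140a(-)/Sca1(+) library was above its injured partner. Ptgs2, the inducible cyclooxygenase, had 2484, 1668 and 394 normalized counts in injured cells, against 616, 164 and 62.7 in control cells (2.57 ± 0.52, adjusted p = 0.383). Ptgs2 was higher after injury in each subpopulation, although the lowest injured value was below the highest control value.

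**Figure D4:**
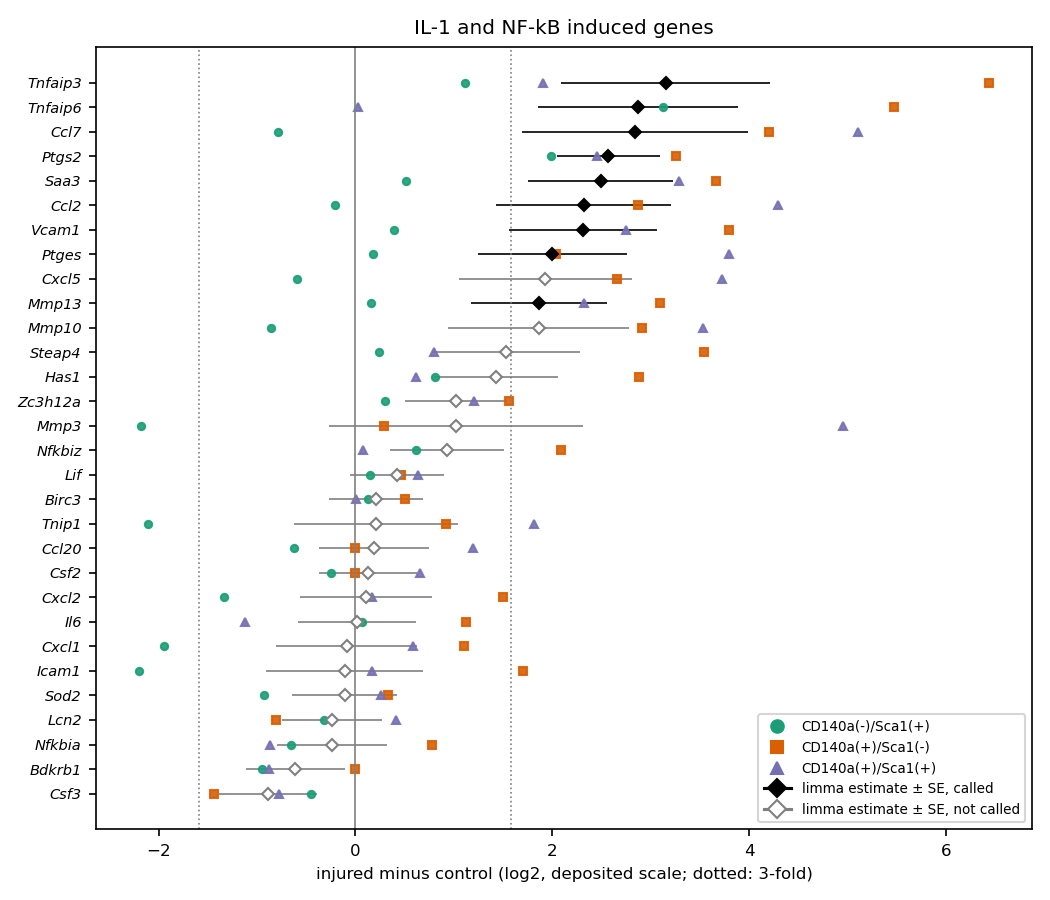
Injured minus control for 30 genes induced by IL-1 and NF-κB, as a log2 difference on the deposited scale, in each subpopulation (coloured symbols) and as the limma estimate ± standard error (diamonds, filled where called). The 9 called genes are all higher, and for several of them the CD140a(-)/Sca1(+) symbol is near 0 while the symbols of both CD140a(+) subpopulations are to the right.

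Markers of other cells that bear ST2 had a median level of at most 3.00 normalized counts in any library. Of the 18 markers of mast cells, type 2 innate lymphoid cells, T helper type 2 cells and regulatory T cells, 11 were tested, 0 rose and 3 fell (Gata3, Icos and Kit), beside 2.3% and 3.46% of all genes. Their summed level was 190.0, 249 and 90.6 normalized counts in injured cells, against 375, 177 and 313 in control cells. Most of these counts were Il2ra (7.95 to 174 in the 6 libraries), Foxp3 (0 to 94.5), Gata3 (4.53 to 76.8) and Areg (1.76 to 68.7). The cytokines Il4 and Il13 were listed at 0 in all 6 libraries, and Il5 reached 3.19, Cpa3 0.439 and Fcer1a 0.882 normalized counts at most. The summed levels were lower in injured than in control cells in CD140a(-)/Sca1(+) and CD140a(+)/Sca1(+) cells. They were higher in CD140a(+)/Sca1(-) cells, where 15 of the 18 markers were listed at 0 after injury. Endothelial markers, of which 12 of 17 fell and 0 rose (3.46% and 2.3% of all genes), summed to 310, 211 and 652 normalized counts in injured cells, against 5021, 3587 and 32981 in control cells. Of 15 stromal fibroblast genes tested, 7 rose and 0 fell (2.3% and 3.46% of all genes). The sum of the 16 genes on the list was 77582, 57118 and 56439 in injured cells, against 21032, 9685 and 4425 in control cells. The list includes the sort genes Pdgfra and Ly6a as well as collagen genes. In injured CD140a(-)/Sca1(+) cells Col1a1, Col1a2 and Col3a1 made up 12744, 23272 and 24650 of the sum, against 651.5, 1417 and 882 in their control partner. Control CD140a(+)/Sca1(+) cells, in which Il33 was lowest, had the highest endothelial and the lowest stromal sum. Fabp4 alone made up 29146 of the endothelial sum of 32981 in that library. It made up 2318 of the sum in control CD140a(-)/Sca1(+) cells and 2590 in control CD140a(+)/Sca1(-) cells. The part of these shifts in the levels of Il33, Il1rl1, Il1r1 and Il1rn was not tested.

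The genes whose levels followed the members most closely were looked up among 5262 genes whose mean normalized count reached 50, by Pearson's r on the deposited log2 scale over the 6 libraries. For Il1rl1 these were Myadm (r = 0.997), Il13ra1, a receptor chain of IL-13 (0.995), Papola (0.988) and Lsp1 (0.987). Il13ra1 had 196, 200.2 and 187 normalized counts in injured cells, against 86.8, 16.7 and 10.6 in control cells. For Il1r1 they were Gpnmb (0.999), Elk3 (0.998), Smim3 (0.995) and Noc4l (0.989). Gpnmb, a transmembrane glycoprotein, had 1288, 3133 and 1257 normalized counts in injured cells, against 353, 68.1 and 124 in control cells. Il13ra1 was even across the injured libraries, and Gpnmb, like Il1r1, was highest in injured CD140a(+)/Sca1(-) cells.

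For Il33 the closest genes were Ryk (0.991), Capn12 (0.990), Soat1 (0.976) and Ssr4 (0.975), which share the low value in control CD140a(+)/Sca1(+) cells. For Il1rn they were Ankfy1 (0.998), Bmp2 (0.996), Ctss (0.993) and Itm2c (0.988). Ctss, a lysosomal protease of antigen-presenting cells, had 79.4, 193 and 89.6 normalized counts in injured cells, against 107, 0 and 0 in control cells. With 6 points that share injury state, subpopulation and depth, these correlations are descriptions of the libraries and were picked as the highest of many.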

How the data were processed

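RNA from the 6 sorted libraries was made into 3′ end libraries (QuantSeq) and sequenced on an Ion Proton. Per the submitters' processing notes and the methods, the authors aligned reads to the mouse genome (mm10, GRCm38) with STAR and transformed gene counts with the variance stabilizing transformation of DESeq2. The deposited values are on that log2 scale, with a floor of 2.57, and no raw counts were used here. Normalized counts were computed by inverting the transformation, and the step between the lowest values gave the normalized value of 1 read in each library. Between 55.8% and 63.7% of low values lay within 0.02 of whole reads, so no count model was fitted for the injury test. Read numbers were rounded to whole reads for the counting intervals, so these numbers, intervals and depths are approximate. Counting intervals are 95% intervals of Poisson reads or of their ratio, and a value of 0 was bounded by 3 reads.

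Gene symbols matched 22453 of 22483 identifiers. Genes whose 80th percentile reached 8 on the linear form of the deposited values (15532 genes) were fitted with limma 3.58.1 in R 4.3.3, with the subpopulation as a block, so that injured and control cells of a subpopulation form a pair, and moderated variances. The interaction of injury and subpopulation left no residual degrees of freedom and was not tested. Adjusted p-values (Benjamini-Hochberg) cover the whole set of genes tested. A call needed an unadjusted p under 0.05 and a 3-fold change. Labels do not say that libraries came from separate animals. The residual spread in the fit is how the injury change differed among the 3 subpopulations, with 2 degrees of freedom. Moderation added 4.11 prior degrees of freedom drawn from all genes tested. The p-values thus measure no spread between replicate libraries of a condition. Named genes were all members, from each pathway list up to 4 called genes per direction, by size of change (or the 3 with the highest mean where 0 were called), and the 4 genes with the highest Pearson's r to Il33, Il1rl1, Il1r1 and Il1rn. The members and lists were chosen with earlier results of these data known. Marker genes are given in addition for the values they add. Alternatives were no block, log2 of the normalized count plus 1 or 0.5, other filters and scalings, unmoderated and trended variances, and leaving out pairs or libraries. Positions are from GENCODE M21. The fit was tested on simulated data.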

Additional observations from a re-analysis of the deposited data

Results flagged for a closer look

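The injury difference of 3 members pointed in opposite directions in different subpopulations beyond counting error. Il1rap also had both signs (0.03, -2.38 and 0.48), but was beyond counting error only in CD140a(+)/Sca1(-) cells, where it was listed at 0 after injury. With 1 library per subpopulation and state, none of these differences between subpopulations was tested. For Il33, the highest and lowest log2 differences (CD140a(+)/Sca1(+) at 4.81 and CD140a(+)/Sca1(-) at -0.57, or 1.63 with median centring) were 5.38 apart. For Il1rn, they were 6.38 apart, between CD140a(+)/Sca1(-) cells at 5.96 and CD140a(-)/Sca1(+) cells at -0.42. For Il1b, they were 5.52 apart, between CD140a(+)/Sca1(-) cells at 3.92, where the control library was listed at 0, and CD140a(-)/Sca1(+) cells at -1.60.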

How the results depend on the processing

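Of the 13 alternatives run for the injury test, Il1rl1 and Il1r1 were called in 12 and Il1rn in 11, and members called higher numbered 3, but 6 with median centring, 0 with the unmoderated test, 4 with the variance trend and 2 to 4 without single pairs (Il33 was added without the CD140a(+)/Sca1(-) pair, Il1rn lost without the CD140a(+)/Sca1(+) pair). Median centring moved the median gene to 0.39, against -0.33, and turned Il1rap to 0.10 and the difference of Il33 in CD140a(+)/Sca1(-) cells to 1.63. The median gene of injured CD140a(+)/Sca1(-) cells was listed at 0, so this setting raised all values of that library against its control. Without single pairs, Il1rap lay between -1.18 and 0.25 and Il1b between -0.37 and 2.39, each turned without the CD140a(+)/Sca1(-) pair. The number of subpopulation contrasts called among 21 was 0 without the replicate block, 0 with the unmoderated test, 7 with median centring and 5 with the variance trend, against 3, and 0 to 7 without single libraries. Of all genes, 357 were called higher and 537 lower. With median centring these were 1218 and 178, with the unmoderated test 114 and 180, and without single pairs 183 to 456 and 412 to 563. Of the 30 induced genes, 9 were called higher, against 4 without the replicate block, 4 and 3 with log2 of the count plus 1 and plus 0.5, 15 with median centring, 1 with the unmoderated test and 3 to 10 without single pairs (a check chosen after seeing the data). Genes called lower were 866 and 907 with log2 of the count plus 1 and plus 0.5. Without the replicate block, no member's injury call changed. The causes were not tested. Il1a, Il1b and Il1rap were each listed at 0 in 1 or 2 libraries, where a count of 0 allows up to 3 reads (1.93 to 2.94 normalized counts in these libraries).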
